A study of Mus musculus with 6 samples.

Results

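The Ifi200 genes, also called the PYHIN family, are a cluster of interferon-inducible genes on mouse chromosome 1, and 8 of the 35976 genes in the count table are described here, namely Ifi202b, Ifi203, Ifi204, Ifi205, Mnda, Mndal, Pyhin1 and Aim2. They were chosen by symbol, with their difference between the groups already known from these libraries. Differences between the groups are therefore given for them as a description, without a test. Polyadenylated RNA came from chondrocytes, the matrix-producing cells of cartilage, of mouse embryos at day 18.5 (articular cartilage of the hind limb, strain label C57BL/6 x 129S4/SvJae). All 6 cultures were expanded on plastic for 16 population doublings with doxycycline at 2 µg/ml, which induced an H3.3 histone transgene. In the 3 H3K9M libraries (replicates 1, 3 and 5) this H3.3 carried the substitution of lysine 9 by methionine, and in the 3 H3WT libraries (replicates 1, 2 and 4) it was wild type. Where values of the libraries are listed, they stand in this order of replicates. The comparison asked which transcripts differ when methylation of that lysine is suppressed in expanded chondrocytes. The sources used here do not give the promoter of the transgene, whether the libraries came from separate animals, or which parental alleles of the cluster each culture carried. P-values below thus measure the spread between these libraries, which may be technical in part.

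Most proteins of the family join an N-terminal pyrin domain, through which proteins assemble with one another, to a C-terminal HIN domain that binds DNA. Aim2 senses double-stranded DNA in the cytosol and assembles an inflammasome with the adaptor Pycard and the protease Casp1. The Ifi204 product, p204, is a DNA sensor upstream of the adaptor Sting and is also known as a cofactor in muscle, bone and cartilage cell differentiation. The Ifi202b product, p202, lacks the pyrin domain and antagonises Aim2. The family is best known from macrophages and other blood cells, and its genes are induced by interferon through a factor that holds Stat2 and Irf9 and binds the interferon-stimulated response element.

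The members lay between 173349547 and 174031755 of chromosome 1 (RefSeq GRCm38.p6, the patched form of the mm10 build), a span of 682 kb with 13 protein-coding genes. Ifi204 lay at 173747293 to 173767069 on the minus strand, with 8 coding exons in GENCODE M21. The row named Mnda is the gene that RefSeq now calls Ifi211, at 173896339 to 173913087, and the row named Pyhin1 is the present Ifi209, at 173630859 to 173647928 on the plus strand. Mndal lay at 173857215 to 173880382, Ifi203 at 173920400 to 173942866, Ifi202b at 173962569 to 173982844 and Ifi205 at 174011998 to 174031755, all on the minus strand. Aim2 lay at 173349547 to 173466040 on the plus strand. In GENCODE the Mndal gene model overlaps those of Mnda and Ifi203 on the same strand.

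Mnda, Ifi204, Ifi205 and Mndal are near-identical copies over part of their length. Depending on how reads with several matches were treated, their counts may not be separate measurements. Ifi204 and Mnda are identical in 1214 of 1275 aligned coding bases (95.2%), Mnda and Ifi205 in 94.7% and Ifi204 and Ifi205 in 90.3%. Aim2 stands farthest apart, at 53.5% to 57.7% identity with the other members. The longest coding run that Mnda shares with Ifi204 without a difference, 223 bases at coding bases 201 to 423 of both, is shown because a read that lies wholly within it could come from either gene.
Mnda and Ifi204, shared coding run (GENCODE M21): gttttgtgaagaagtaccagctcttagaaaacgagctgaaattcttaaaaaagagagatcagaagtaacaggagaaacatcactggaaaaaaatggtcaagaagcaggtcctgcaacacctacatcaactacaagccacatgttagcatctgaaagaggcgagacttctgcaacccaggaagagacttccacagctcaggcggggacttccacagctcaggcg
Between Mnda and Ifi205 the longest such run is 495 bases.

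When each transcript was cut into windows of 75 bases, 63.6% of the windows of Mnda occurred in another family transcript, against 45.2% for Ifi205, 20.7% for Ifi204 and 13.8% for Mndal. For Ifi203 it was 0.805%, and no window of Ifi202b, Pyhin1 or Aim2 was shared. With windows of 100 bases the shares were 56.9% for Mnda and 16.8% for Ifi204. Read length and the treatment of reads with several matches are not given in the sources used here. The split of reads between Mnda, Ifi204, Ifi205 and Mndal is therefore uncertain.

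**Figure D1:**
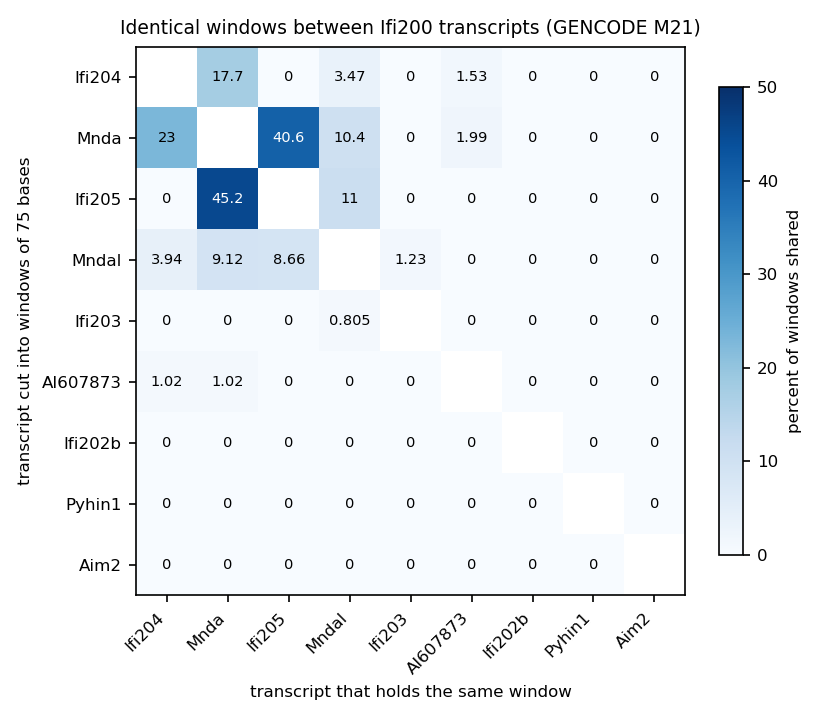
Percent of the 75-base windows of each transcript (rows) that occur without a difference in another transcript (columns), for the 8 members and AI607873, a further family gene. Mnda shares 40.6% of its windows with Ifi205 and 23% with Ifi204, while Ifi202b, Pyhin1 and Aim2 share none.

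The promoters were examined for the interferon-stimulated response element, through which the family is known to be induced. The motif GAAA, any 2 bases, GAAA was searched on both strands of the 250 bases before the start site (RefSeq). Of the 7 members with an entry, 4 held it in at least 1 window. Counted by window, 9 of the 13 windows of family genes, members and others, held it, against 2.98% of the 32851 promoter windows of the genome. Ifi204 had no entry. The family arose by gene duplication, so the matches are not independent of one another. The windows of Mnda, Ifi205 and Mndal are shown with the motif in capitals, as the tested members that had an entry.
Mnda, chr1:173913047-173913296, minus strand: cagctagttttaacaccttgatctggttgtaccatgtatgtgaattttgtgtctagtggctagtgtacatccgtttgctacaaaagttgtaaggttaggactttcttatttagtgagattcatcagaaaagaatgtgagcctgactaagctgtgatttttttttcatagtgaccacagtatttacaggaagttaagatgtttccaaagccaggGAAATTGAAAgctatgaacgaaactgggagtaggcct
Ifi205, chr1:174031756-174032005, minus strand: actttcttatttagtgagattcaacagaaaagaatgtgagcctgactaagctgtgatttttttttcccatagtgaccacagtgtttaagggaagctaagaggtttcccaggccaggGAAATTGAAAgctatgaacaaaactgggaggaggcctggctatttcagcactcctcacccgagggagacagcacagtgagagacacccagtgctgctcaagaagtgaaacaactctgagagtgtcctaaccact
Mndal, chr1:173880188-173880437, minus strand: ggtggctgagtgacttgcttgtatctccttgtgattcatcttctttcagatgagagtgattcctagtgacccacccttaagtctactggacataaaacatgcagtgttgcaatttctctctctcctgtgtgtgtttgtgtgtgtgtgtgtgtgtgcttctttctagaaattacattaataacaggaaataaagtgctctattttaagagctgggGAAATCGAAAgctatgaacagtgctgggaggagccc
The match lay 37 to 28 bases before the start in Mnda, 134 to 125 in Ifi205 and 36 to 27 in Mndal, and the first 2 have the same motif letters. A second window of Mndal, chr1:173879959-173880208, held a match on the opposite strand, 54 to 45 bases before its start. The windows of Aim2, Pyhin1 and Ifi202b held no match, and 1 of the 2 windows of Ifi203 did.

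Total counts per library were 15113675 to 19606082, and 13761 genes passed the filter on low counts. Of these, 0 (0%) had an adjusted p under 0.05 (quasi-likelihood test of edgeR, adjusted over all genes tested by Benjamini-Hochberg), 1677 had an unadjusted p under 0.05, and limma-voom called 0 and DESeq2 390. Col2a1, which encodes the main collagen of cartilage, had 4910 to 14100 counts per 1000000 (CPM, library sizes scaled by TMM) in the 6 libraries. The first principal component, 35.5% of the variance, did not follow the groups: H3K9M replicate 3 (51) and H3WT replicate 2 (49.1) lay at one end, H3WT replicates 1 (-56.2) and 4 (-51.5) at the other. The groups were separated by the next component, 28.8% of the variance, with H3K9M at -38.4, -39.8 and -19 and H3WT at 11.4, 71.5 and 14.4.

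Read counts of the family were carried almost wholly by Ifi204 and Mnda, which held 83.7% to 97.3% of the family's reads in each library. Of the 8 members, 4 (Ifi204, Mnda, Ifi205 and Mndal) passed the filter on low counts. Pyhin1, Aim2 and Ifi203 had 34, 17 and 19 reads over the 6 libraries, and Ifi202b had 0. The 8 members summed to 32.2, 46.3 and 41 CPM in H3K9M, and to 11, 30.2 and 9.96 CPM in H3WT. All 3 H3K9M libraries thus lay above all 3 H3WT libraries, but H3WT replicate 2 came close to the lowest of them and was 2.88 times the mean of the other H3WT libraries. The mean was 39.8 ± 7.16 CPM with H3K9M against 17.1 ± 11.4 CPM with H3WT (SD, n = 3 each), a 2.34-fold difference. Without H3WT replicate 2 it was 3.8-fold. The family level was high in the libraries at the high end of the first principal component and low in H3WT replicates 1 and 4 at its other end. H3K9M replicates 1 (-2.82) and 5 (10.4) lay between these ends on the component. Their family levels, 32.2 and 41 CPM, were nevertheless above the 30.2 CPM of H3WT replicate 2 at the high end. The part of that component in the difference was not tested. Of the 8 members, 6 had a higher mean CPM in H3K9M, a count that includes members below the filter. For Aim2 and Pyhin1 the higher mean rests on few reads. The count was not set against the same share over all genes and is no result about the family. The 4 tested members, which share windows of sequence, all had a positive fitted fold change, as did 49.6% of all tested genes. Ifi205 and Mndal had fewer reads in H3WT and passed the filter mainly through H3K9M, which favours a positive sign.

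**Figure D2:**
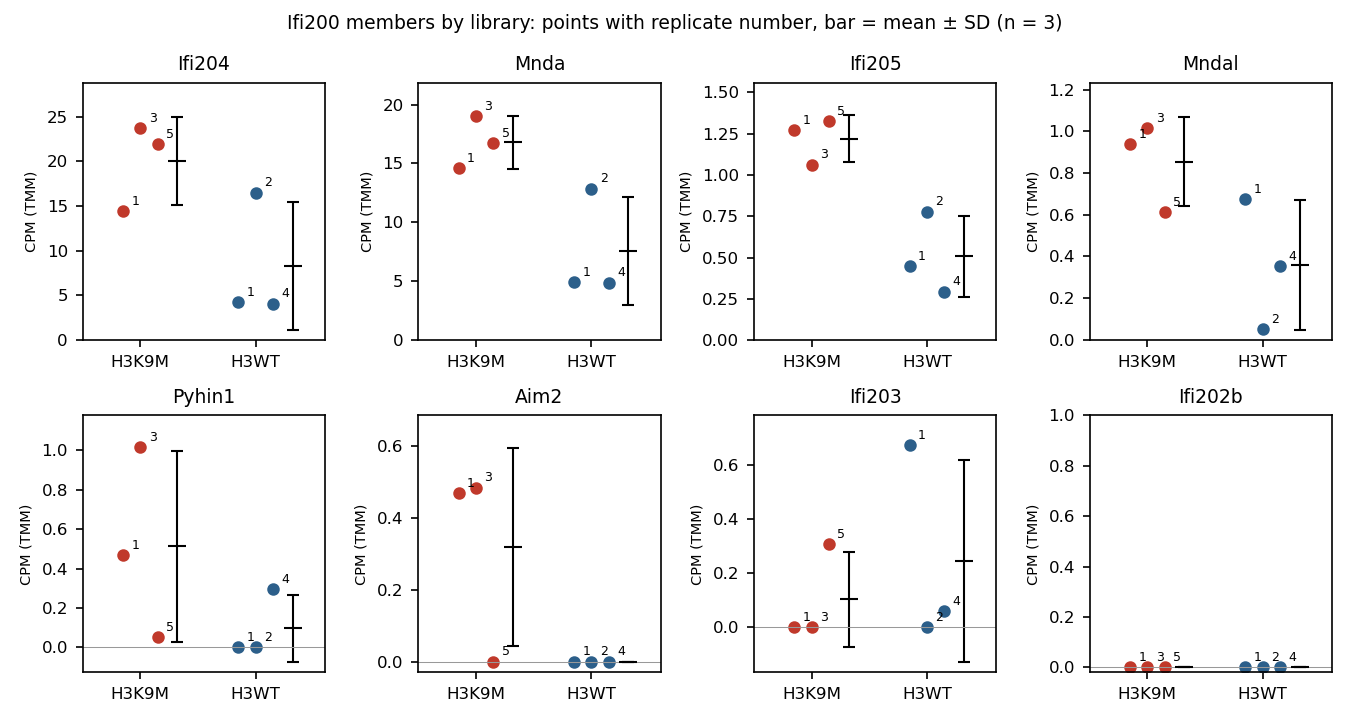
CPM of each member in each library, with points numbered by replicate and bars at the mean ± SD of 3 libraries. The axes differ between panels: Ifi204 and Mnda reach 23.7 and 19 CPM, the other members stay under 1.4 CPM, and H3WT replicate 2 stands above H3WT replicates 1 and 4 for Ifi204, Mnda and Ifi205 but below them for Mndal.

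Ifi204, the gene of the DNA sensor p204, had 215, 491 and 430 reads in H3K9M, or 14.4, 23.7 and 21.9 CPM. In H3WT it had 76, 318 and 69 reads, or 4.27, 16.5 and 4.06 CPM. H3WT replicates 1 and 4 were low, H3WT replicate 2 lay above H3K9M replicate 1, and the groups overlapped. The means were 20 ± 4.95 CPM and 8.28 ± 7.12 CPM (SD, n = 3 each), and the fitted log2 fold change was 1.27 (SE 0.56). It was 2.27 without H3WT replicate 2, whose level was 3.96 times the mean of the other H3WT libraries. Within H3K9M the highest library held 1.65 times the lowest.

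Mnda, the mouse gene named after the human myeloid nuclear differentiation antigen, had 218, 394 and 328 reads in H3K9M, or 14.6, 19 and 16.7 CPM. In H3WT it had 88, 248 and 83 reads, or 4.94, 12.9 and 4.89 CPM. The groups did not overlap, which held for 10.7% of all tested genes in this direction, and they stayed apart with DESeq2's size factors and with library size alone. The margin was narrow, between H3WT replicate 2 and H3K9M replicate 1. The means were 16.8 ± 2.22 CPM and 7.57 ± 4.59 CPM (SD, n = 3 each), with a fitted log2 fold change of 1.15 (SE 0.40), and of 1.78 without H3WT replicate 2.

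Ifi204 and Mnda followed each other across the libraries, and the part of shared reads in this was not tested. The share of Ifi204 in the reads of both was 49.7%, 55.5% and 56.7% in H3K9M and 46.3%, 56.2% and 45.4% in H3WT. The intervals of the lowest and highest of these were 37.7% to 53.3% and 53.2% to 60.2% (95%, Wilson, counting error only). H3K9M replicates 3 and 5 and H3WT replicate 2, with the higher levels of Ifi204, had the higher shares, and the groups overlapped. Per kilobase of transcript, Mnda had the higher level in 5 of 6 libraries. This order depends on how reads from shared windows were counted, which is not given in the sources used here. The means were 9.41 ± 1.24 CPM per kilobase for Mnda and 8.72 ± 2.15 for Ifi204 in H3K9M, a difference smaller than the spread of either.

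Ifi205, also known as D3, had 19, 22 and 26 reads in H3K9M and 8, 15 and 5 reads in H3WT. These were 1.27, 1.06 and 1.33 CPM against 0.449, 0.778 and 0.295 CPM. The groups did not overlap, as for 10.7% of tested genes, and H3WT replicate 2 was again the highest of its group. The fitted log2 fold change was 1.25 (SE 0.83), and 1.70 without H3WT replicate 2. Per kilobase it stood below Ifi204 and Mnda, at 0.757 ± 0.0863 CPM in H3K9M and 0.315 ± 0.153 in H3WT. It was followed in H3K9M by Mndal (0.422 ± 0.105 CPM per kilobase), Pyhin1 (0.149 ± 0.141), Aim2 (0.112 ± 0.0968) and Ifi203 (0.0334 ± 0.0579), of which the last 3 lay within their spread (SD, n = 3).

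Mndal, which takes its name from likeness to Mnda, departed from this order. It had 14, 21 and 12 reads in H3K9M and 12, 1 and 6 reads in H3WT, or 0.938, 1.01 and 0.612 CPM against 0.674, 0.0519 and 0.354 CPM. The groups overlapped, and the lowest value of all was that of H3WT replicate 2, the library in which Ifi204 and Mnda were highest within H3WT. The fitted log2 fold change was 1.24 (SE 1.08). It was 0.73 without H3WT replicate 2 and reached 2.05 without H3WT replicate 1, so single libraries with few reads set its size. Over the 6 libraries Pearson's r of log2 CPM between Mndal and Ifi204 was 0.081, against 0.992 between Mnda and Ifi204 and 0.914 between Ifi205 and Ifi204 (a description over 6 libraries, among genes that share windows).

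**Figure D3:**
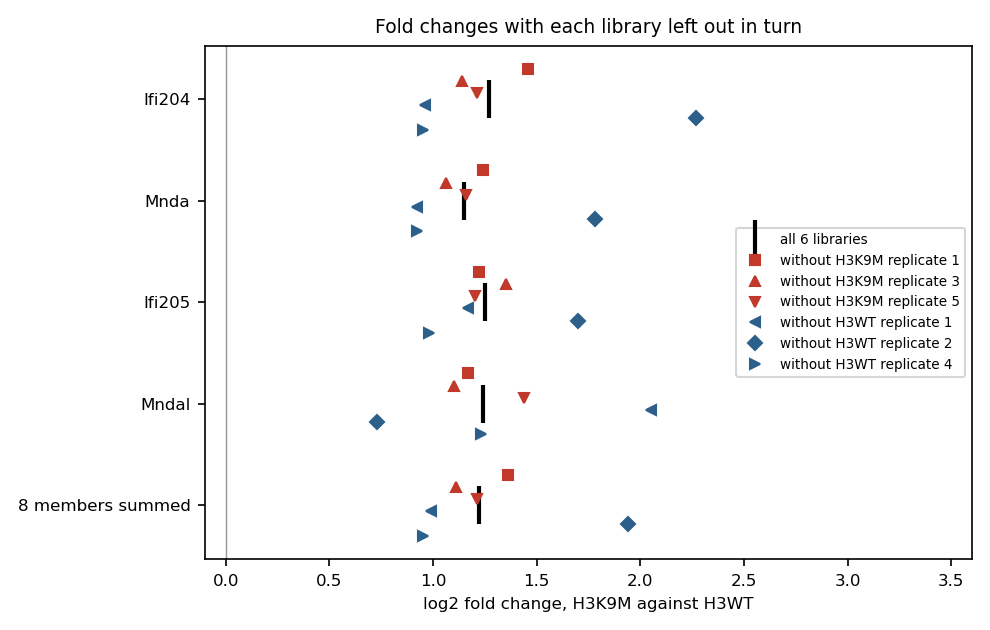
Log2 fold change (H3K9M against H3WT) of the 4 tested members and of the 8 members summed, for all 6 libraries (black bars) and with each library left out in turn (symbols). All values lie above 0, for members chosen with their difference known and fits that share libraries. Leaving out H3WT replicate 2 gives the highest value for Ifi204 (2.27), Mnda (1.78), Ifi205 (1.70) and the sum (1.94) but the lowest for Mndal (0.73).

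The sensor Aim2 was detected in 2 libraries, H3K9M replicates 1 and 3, with 7 and 10 reads (0.469 and 0.483 CPM). It had 0 reads in H3K9M replicate 5 and in each H3WT library, where 0 reads allow up to 0.0555 CPM over the group. The difference of 17 reads against 0 rests on those 2 libraries. Pyhin1, which has the symbol of the human gene also called IFIX, had 7, 21 and 1 reads in H3K9M and 0, 0 and 5 in H3WT. The ratio of summed reads per library size was 5.68. Of the 29 reads in H3K9M, 21 came from replicate 3, and H3K9M replicate 5 lay below H3WT replicate 4. Ifi203 had 0, 0 and 6 reads against 12, 0 and 1. It was the member with a lower mean in H3K9M, and 12 of its 13 H3WT reads came from H3WT replicate 1.

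Ifi202b, the antagonist of Aim2, had 0 reads in all 6 libraries, which allows up to 0.0275 CPM over them. Of the other family genes in the table, AI607873 (now Ifi207) had 6, 29 and 2 reads in H3K9M and 14, 0 and 8 in H3WT. The rows Pydc3, Pydc4, BC094916 and LOC102639543 (Ifi208, Ifi213, unmatched and Ifi206) had 0 reads throughout. In H3WT replicate 2 the counts of Aim2, Pyhin1, Ifi203 and AI607873 were all 0 and that of Mndal was 1, while Ifi204, Mnda and Ifi205 were at their highest within H3WT. Most of these genes had few or 0 reads in other libraries too.

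Markers of cells that carry the family at high levels were measured beside it. Of 18 macrophage and blood markers, 10 had 0 reads in all libraries, among them Ptprc, the pan-leukocyte CD45 gene, and the macrophage genes Adgre1, Itgam, Aif1, Tyrobp, C1qa and C1qb. Other macrophage genes were detected, with overlapping groups. Csf1r had mean CPM of 3.03 in H3K9M and 1.84 in H3WT, and Cd14 had 4.97 and 4.79. Lyz2 had 1.38 and 1.07, and Mrc1 had 1.52 and 1.74. The list summed to 16.8, 24.2 and 12.2 CPM in H3K9M and to 11.6, 16 and 6.72 CPM in H3WT. It was highest in H3K9M replicate 3, the library with the highest family sum. In H3K9M replicate 5, with a family sum of 41 CPM, it lay below H3WT replicate 2, with a family sum of 30.2 CPM. Of its 5 tested genes, 4 had a positive fold change in H3K9M and 0 passed the test (edgeR; 0 also at an unadjusted p under 0.05). Cd68, a lysosomal gene, had 6.72 ± 5.38 CPM against 2 ± 1.38 CPM (SD, n = 3 each; adjusted p 0.411, edgeR). The endothelial list stayed at 0.765 to 2.28 CPM, with Cdh5, Tie1, Emcn and Cldn5 at 0 in all libraries. In bulk RNA fewer cells of a type and less RNA per cell cannot be told apart. The part of these cells in the family difference was not tested. Chondrocyte markers were lower in H3K9M in the fit for all 9 tested genes (median log2 fold change -1.03), though 0 passed the adjusted test (edgeR), 1 had an unadjusted p under 0.05 and the groups overlapped for each. Their sum was 6096, 6828 and 9858 CPM in H3K9M and 6030, 16850 and 11640 CPM in H3WT, and its part in the family difference was not tested.

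**Figure D4:**
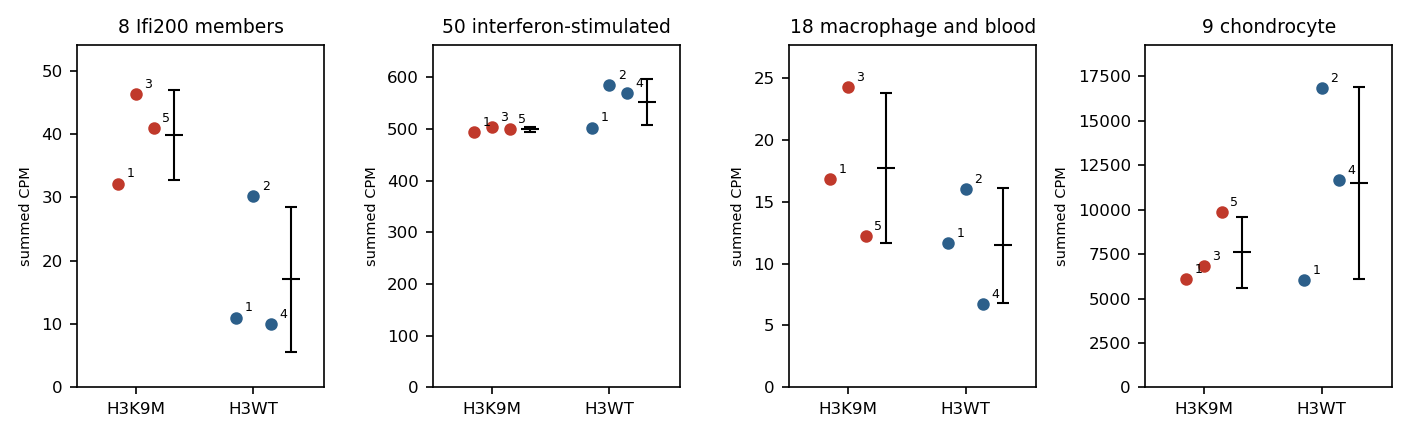
Summed CPM per library of the 8 members and of the interferon-stimulated, macrophage and blood, and chondrocyte lists, with points numbered by replicate and bars at the mean ± SD of 3 libraries. The family ranges from 9.96 to 46.3 CPM, and the interferon-stimulated list, which is not higher in H3K9M, from 494.3 to 585.6 CPM. That sum is carried largely by genes with high counts, such as Ifitm2 (104 to 134 CPM). It shows little of the genes with few reads, such as Isg15 and Ifit1, which varied between libraries.

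No gene of the pathway lists around the family changed past the adjusted threshold with edgeR, which called 0 of all 13761 tested genes. The edgeR counts of 0 given for each list below are therefore not particular to the lists. The partners of Aim2 and of DNA sensing came first, a list of 34 genes of which 31 were in the table and 22 were tested. Among them 0 rose and 0 fell (edgeR, adjusted p under 0.05), while 0 were higher and 3 lower at an unadjusted p under 0.05, where 6.42% and 5.77% of all tested genes were higher and lower. The median log2 fold change was -0.02, against -0.003 for all tested genes. DESeq2 called 1 gene, Gsdmd, which encodes the pore-forming protein that inflammasomes activate. Gsdmd had 9.85, 6.52 and 5.46 CPM in H3K9M and 26.7, 13.8 and 16 CPM in H3WT. All H3K9M libraries were lower. The fitted log2 difference was -1.37 ± 0.34 (SE) with edgeR (adjusted p 0.226) and -1.38 with DESeq2 (adjusted p 0.0172). In this list 4 of 22 genes had all H3K9M values below all H3WT values, against 8.68% of tested genes: Gsdmd, Samhd1, Tmem173 and Trex1. Tmem173, the Sting adaptor downstream of p204, and Trex1, a DNA exonuclease, are named for this after their values were seen. Samhd1, a nucleotide hydrolase, had a log2 fold change of -0.66 (edgeR adjusted p 0.269, SE 0.20), and Tmem173 had -0.70 (SE 0.21, adjusted p 0.28).

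The parts of the inflammasome itself were scarce. Pycard had 20, 68 and 30 reads in H3K9M and 23, 88 and 8 in H3WT, and Casp1 had 7, 0 and 0 against 9, 0 and 0. Il1b, Nlrp3, Nlrp1a and Nlrp1b had 0 reads in every library. Of the genes with the smallest p among those higher in H3K9M, Rnaseh2b, a subunit of ribonuclease H2, had 19.1 ± 4.91 CPM against 12.7 ± 3.52 CPM and Lrrfip1, a nucleic acid-binding protein, 293 ± 18.7 against 255 ± 17.1 (SD, n = 3 each). Neither passed the test (adjusted p 0.456 and 0.521, edgeR), and for both the groups overlapped.

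Genes of interferon signalling were next, 31 genes with 20 tested, of which 0 rose and 0 fell past the threshold (edgeR; DESeq2 also called 0). At an unadjusted p under 0.05, 1 was higher and 4 were lower in H3K9M, and the median log2 fold change was -0.26. The 9 interferon genes of the list, Ifnb1 and Ifng among them, had 0 reads in all libraries. Stat2, a subunit of the factor that binds the response element, had 15.8, 8.36 and 19.2 CPM in H3K9M and 21.1, 26.1 and 28.5 CPM in H3WT. Its values were lower in all H3K9M libraries, with a log2 fold change of -0.81 (edgeR adjusted p 0.357, SE 0.31). In this list 3 of 20 tested genes, Stat2 included, had all H3K9M values below all H3WT values, and 0 had all above. The shares of all tested genes were 8.68% and 10.7%. Irf9 had 13.3 ± 4.95 CPM against 18.6 ± 6.04 (SD, n = 3 each), with overlapping groups. The kinase Jak1 had a log2 fold change of -0.66 and the receptor chain Ifngr2 of 0.41 (adjusted p 0.357 and 0.373, edgeR). The phosphatase Ptpn2 had 0.23 (adjusted p 0.612).

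Of 50 other interferon-stimulated genes, 28 were tested, and 0 rose and 0 fell (edgeR; DESeq2 also called 0). At an unadjusted p under 0.05, 1 was higher and 0 were lower. In H3K9M 8 of the 28 were higher and 20 lower, a share of 28.6% higher against 49.6% of all tested genes, and the median log2 fold change was -0.20. Samd9l, an antiviral gene, was the 1 with all H3K9M values above all H3WT values, while 2, Igtp and Eif2ak2, had all H3K9M values below all H3WT values, against 10.7% and 8.68% of all tested genes. Samd9l had 43.1, 44.9 and 44.7 CPM in H3K9M and 18.6, 36.1 and 26 CPM in H3WT (edgeR adjusted p 0.293, fitted log2 fold change 0.72, SE 0.23). H3WT replicate 2 was again the highest of its group, as for Ifi204. Isg15, a ubiquitin-like protein, had 0, 29 and 1 reads in H3K9M and 6, 24 and 0 in H3WT. Ifit1, which binds viral RNA, had 0, 35 and 4 against 0, 16 and 7. For both, H3K9M replicate 3 and H3WT replicate 2 were the highest of their groups. Eif2ak2, a kinase that senses double-stranded RNA, had a log2 fold change of -0.37 (adjusted p 0.42, edgeR). Igtp, an interferon-induced GTPase, had 0, 9 and 9 reads in H3K9M against 28, 23 and 43, a log2 fold change of -2.50 (adjusted p 0.415, edgeR). Dtx3l, a ubiquitin ligase, had 0.45 (adjusted p 0.576).

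Proteins known to bind p202 or p204 gave 19 tested genes of 20, and 0 rose or fell past the threshold (edgeR; DESeq2 also called 0). At an unadjusted p under 0.05, 2 were higher and 1 was lower, and the median log2 fold change was 0.03. Myod1, the muscle determination factor, had 291, 1179 and 84 reads in H3K9M and 0, 20 and 0 in H3WT. The groups did not overlap and the H3K9M libraries were spread widely, with a log2 fold change of 6.20 (edgeR adjusted p 0.244, SE 1.53). Among the 19 tested genes, Myod1 was the 1 with all H3K9M values above all H3WT values, against 10.7% of all tested genes. Id2, an inhibitor of helix-loop-helix factors, had 64.6, 82.7 and 87.9 CPM in H3K9M and 45, 67.9 and 41.9 CPM in H3WT, the same overlap through H3WT replicate 2 as Ifi204 (edgeR adjusted p 0.324, fitted log2 fold change 0.60, SE 0.21). The cell cycle factor E2f1 had -0.66 (SE 0.25, adjusted p 0.361, edgeR), and Rbl1, of the retinoblastoma family, -0.25 (adjusted p 0.604).

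**Figure D5:**
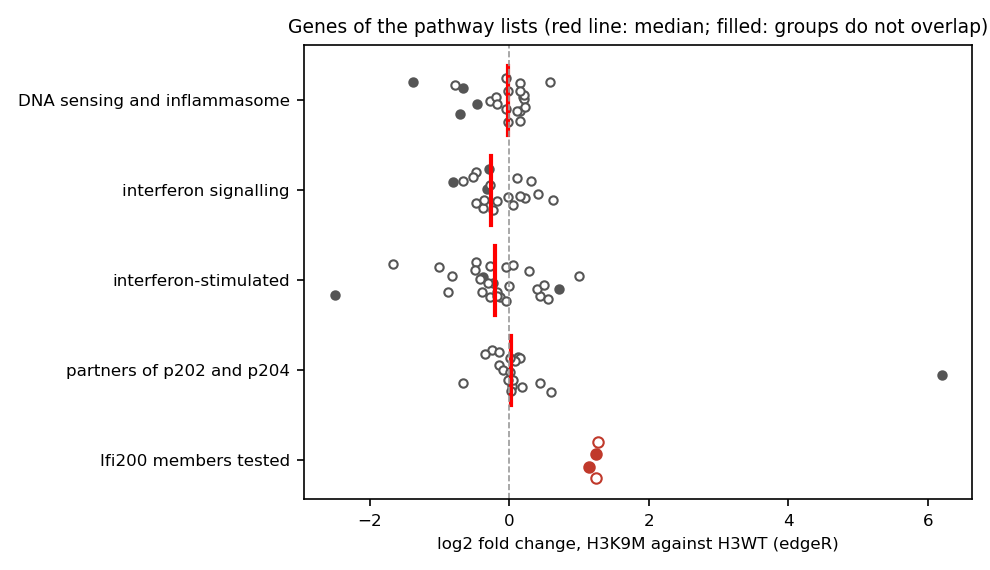
Log2 fold change (H3K9M against H3WT, edgeR) of each tested gene of the pathway lists and of the 4 tested members, with filled points where the groups do not overlap, red lines at the list medians and a dashed line at the median of all tested genes. The medians lie at -0.02, -0.26, -0.20 and 0.03, the 4 members at 1.15 to 1.27, and Myod1 at 6.20.

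The genes whose pattern over the 6 libraries was most like that of each member were taken by Pearson's r of log2 CPM. For Ifi204 these were Car5b, a mitochondrial carbonic anhydrase (r = 0.992), Emb, the membrane glycoprotein embigin (r = 0.991) and Vps37a, of the endosomal sorting machinery (r = 0.9925). Emb had 120, 183 and 162 CPM in H3K9M and 69.1, 152 and 67.3 CPM in H3WT, the order of Ifi204. For Mnda they were Gm567, Lsm1 and 1700017M07Rik, and for Ifi205 Rabggtb, Prdx3 and Eif2a. For Mndal they were Slfn10-ps, Lmbr1 and Egf, all lowest in H3WT replicate 2. For the 8 members summed they were 1700017M07Rik, G930009F23Rik and S100a10. These values were picked as the highest over all tested genes outside the family and are a description only.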

How the data were processed

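Polyadenylated RNA of 6 libraries (3 H3K9M, 3 H3WT, grouped by title) was measured as read counts per gene symbol. The deposited values are whole numbers with unequal totals, and were taken as counts that the authors had not normalized. HISAT2, featureCounts, DESeq2 and the build mm10 are named in the submitters' processing notes, without versions. Annotation, strand setting and multi-mapping are not given in the sources used here. 0 columns belonged to other samples, and every row had a symbol.

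The fit used edgeR 4.0.16 under R 4.3.3 (filterByExpr, TMM, robust glmQLFit, glmQLFTest, genotype as the only term, Benjamini-Hochberg over 13761 genes, threshold 0.05). CPM use the TMM-scaled library sizes, log2 CPM a prior count of 2, and CPM per kilobase the GENCODE M21 transcript with the longest coding sequence. A gene at 0 reads was bounded at 3 counts. The biological coefficient of variation was 0.336. Symbols were matched to RefSeq GRCm38.p6 by symbol, older symbol or gene ID for 12 of the 13 family rows. Coding sequences were aligned with Biopython 1.88.

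Members and lists were chosen with earlier results of these data known. The text names all members, the 2 genes per list with the smallest p in each direction as none passed, Pycard, Casp1, Irf9, Isg15 and Ifit1, and the 3 genes most like each tested member; 1 gene that this rule names is not reported here. The fit was tested on simulated data. Alternatives were DESeq2 1.42.0, limma-voom (limma 3.58.1), 2 scalings, 2 filters and each library left out, and, added after seeing the data, Ifi204, Mnda, Mndal and Ifi205 summed as 1 gene.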

Additional observations from a re-analysis of the deposited data

How the results depend on the processing

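The count of changed genes, 0 in the reported fit, was 390 with DESeq2 and 36 when every gene with a count was tested, and the cause was not tested. Leaving out single libraries gave 0 to 91 calls: 91 without H3WT replicate 2 and 2 without H3K9M replicate 3. DESeq2 called 1 gene of the DNA sensing and inflammasome list. The other lists had 0 calls under all alternatives run. The log2 ratio of the summed family level, 1.22, was 1.21 to 1.26 under the other scalings and per kilobase, and with single libraries left out it lay between 0.95 (H3WT replicate 4 absent) and 1.94 (H3WT replicate 2 absent). The fitted value for Ifi204, Mnda, Mndal and Ifi205 summed as 1 gene was 1.22 (SE 0.45). The 4 tested members had a positive log2 fold change in all fits that gave one, between 0.73 and 2.27. They were chosen with this difference known, the fits share libraries, and Ifi205 and Mndal passed the filter mainly through H3K9M. The shared sign is therefore a description only. The number of members with a higher mean in H3K9M was 6 of 8, and 7 without H3WT replicate 1, where Ifi203 turned. It was not set against the same share over all genes. The median of the DNA sensing list, -0.02, turned positive with limma-voom (0.05), with library size alone (0.04), which puts the median of all genes at 0.053, and without H3WT replicate 2 (0.12), H3K9M replicate 1 (0.08) or H3K9M replicate 5 (0.02). No paired analysis was possible because the groups share only the replicate number 1. Ifi205 and Mndal gave no value under the filter that asks every library for 10 counts. The few reads of Pyhin1, Aim2 and Ifi203 limit what can be said of them.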
